A study of Ovis aries with 16 samples.

Results

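NFKBIA encodes the inhibitor IκBα, and its mRNA was followed across 16 arrays of fetal sheep hypothalamus. The gene was found by its name in the array annotation. It was 1 gene of 1024 named on the array and was represented by 1 probe of 15008. The fetuses were late-gestation Suffolk sheep (Ovis aries) with chronic catheters, and each array held the RNA of a single fetus. Fetuses of the normoxia control group (NC, n = 3) received saline followed by 30 min of normoxia, and those of the normoxia plus ketamine group (NK, n = 4) received ketamine before the same normoxic period. Fetuses of the hypoxia control group (HC, n = 5) received saline before 30 min of hypoxia produced by lowering the oxygen breathed by the ewe, and those of the hypoxia plus ketamine group (HK, n = 4) received ketamine before this hypoxia. All groups then recovered in normoxia for 23.5 h, so that the tissue was taken 24 h after the stimulus began. Ketamine is an anesthetic that blocks the NMDA class of glutamate receptors. It was given into the circulation and acts in many tissues, and the hypothalamus was sampled whole, with all of its cell types and vessels.

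NF-κB is a family of transcription factors that wait in the cytoplasm bound to inhibitors. When Toll-like receptors or receptors for tumor necrosis factor or interleukin-1 are engaged, the IκB kinase complex marks IκBα for destruction, and the released dimers enter the nucleus and switch on genes for cytokines, chemokines, adhesion molecules and prostaglandin synthesis. NFKBIA is itself one of these targets. Newly made IκBα carries the dimers back out of the nucleus, so the gene is both a brake on the pathway and a widely used reporter of it. Its mRNA also answers to other signals, including glucocorticoids, and an array measures neither the IκBα protein nor the binding of NF-κB to DNA.

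All NFKBIA values rest on a single 60-base probe, printed here because no second probe carried its name. The probes of 4 genes whose signals are set beside NFKBIA follow it. Each sequence is given as the array annotation lists it.
NFKBIA: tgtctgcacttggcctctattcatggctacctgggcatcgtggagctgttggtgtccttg
PTGS2: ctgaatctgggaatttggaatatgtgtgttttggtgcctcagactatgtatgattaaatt
TLR2: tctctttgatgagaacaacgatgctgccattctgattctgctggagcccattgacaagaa
SELP: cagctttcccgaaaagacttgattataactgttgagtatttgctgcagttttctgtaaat
EDN1: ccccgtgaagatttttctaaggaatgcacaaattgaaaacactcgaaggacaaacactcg
The NFKBIA probe starts at base 655 of its sheep RefSeq transcript in the annotation, is 55% G and C, and was spotted once on each array. Its longest run of bases shared with any of the other 15007 probes, on either strand, was 13, and none shared 20 or more. The files name no genome build, so no genome coordinates are given.

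The arrays were of similar quality. The 75th percentile of the processed signal, the reference for all levels given below, ranged from 1248 to 1597 intensity units, and 71.8% to 80.6% of probes were well above background. The NFKBIA probe was well above background on 16 of 16 arrays and saturated on 0. Of 8 tested peptide genes that mark hypothalamic neurons, AGRP was well above background on 15 arrays and the others, oxytocin and somatostatin among them, on 16. Some differed widely between arrays. AGRP ranged from -5.81 in NC2 to 1.57 in HC3 and GHRH from -4.71 in NK1 to 0.11 in HC3 (log2 relative to the 75th percentile). Oxytocin was -0.45 in NK4 and 3.76 in HK3. Slide 1 carried replicates 1 and 2 of every group and slide 2 the others, so each comparison could be made within a slide. The study used mostly twins and littermates are not identified in the labels, so the fetuses were treated as independent.

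NFKBIA mRNA was higher after hypoxia, and its level in HK lay between those of HC and the normoxic groups. Levels are in log2 units above or below the 75th percentile of each array's signal. In NC it measured 0.48, 0.80 and 0.70, and in NK 0.64, 0.60, 1.05 and 0.67. These 7 normoxic arrays lay close together and the NC and NK values overlapped. In HC it measured 2.56, 1.89, 2.10, 2.75 and 0.82, and in HK 1.68, 1.55, 0.56 and 1.33. Of the 9 hypoxic arrays, 7 stood above every normoxic array, and the exceptions were HC5 and HK3, which lay at the normoxic level. Against the NC mean, the HC arrays measured 3.74-, 2.34-, 2.72-, 4.27- and 1.12-fold and the HK arrays 2.02-, 1.86-, 0.935- and 1.59-fold.

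**Figure D1:**
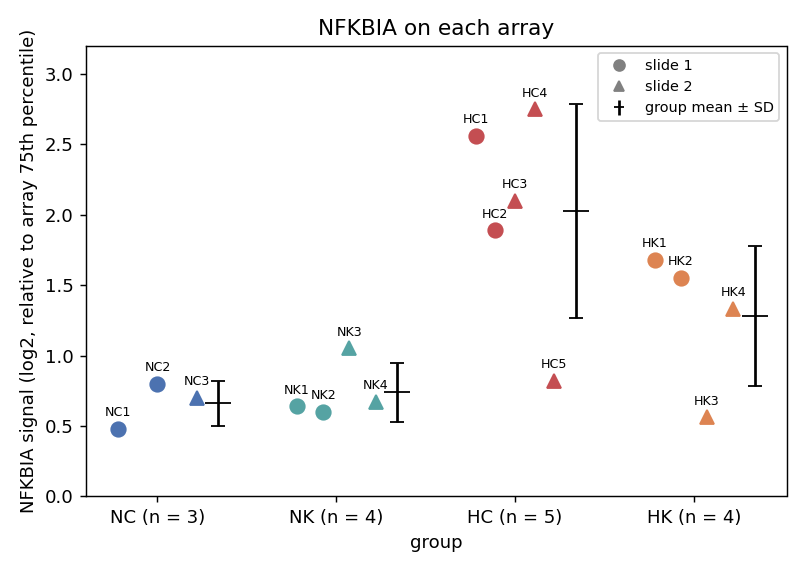
NFKBIA signal on each of 16 arrays (y axis, log2 relative to the array's 75th percentile) by group (x axis), with circles for slide 1, triangles for slide 2 and black bars for the group mean ± SD. HC arrays reach 2.75, the 7 normoxic arrays lie between 0.48 and 1.05, and HC5 and HK3 lie within or next to that range.

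Group means placed HC first, at 2.03 ± 0.76 (SD, n = 5), then HK at 1.28 ± 0.50 (SD, n = 4), NK at 0.74 ± 0.21 (SD, n = 4) and NC at 0.66 ± 0.16 (SD, n = 3). The spread was thus widest in the hypoxic groups. NK and NC, the last neighbors in this order, did not differ beyond their spread, and HK and NK overlapped on their lowest and highest arrays.

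To examine the effect of hypoxia alone, HC was compared with NC. Hypoxia increased NFKBIA by 1.37 ± 0.36 log2 units (SE), or 2.58-fold with a 95% confidence interval of 1.51 to 4.39. This passed limma's test at the unadjusted threshold of 0.05 of the study's methods but not after Benjamini-Hochberg adjustment over 12250 probes (adjusted p = 0.342). Of all tested probes, 8.16% passed the unadjusted threshold in this comparison and 0 passed after adjustment. HC and NC separated fully, although only narrowly, with HC5 at 0.82 and NC2 at 0.80. Such a separation with HC the higher was seen for 2.47% of probes. In an exact two-sided permutation test over the 8 arrays, 3 of 56 arrangements gave a mean difference as large (p = 0.0536, or 0.179 adjusted over 5 pairwise comparisons), where the smallest possible value was 0.0179. The difference was 1.58 on slide 1 and 1.19 on slide 2, where NC was a single array. HC5 weighed heavily on its error. Without that array, the lowest of HC, the difference was 1.67 ± 0.26 (SE) and passed limma's test over all probes (adjusted p = 0.0232). HC5 was singled out after its value was seen, and leaving out the lowest HC array raises the difference. With any other single array left out, limma's adjusted p lay between 0.268 and 0.826.

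For ketamine in the absence of hypoxia, NK was set against NC, which is also the reference of the previous comparison. NFKBIA differed by 0.08 ± 0.37 log2 units (SE), with a 95% confidence interval of -0.72 to 0.88. The difference did not pass limma's test (adjusted p = 1.0), and the interval leaves room for changes of either sign. At the unadjusted threshold 1.09% of probes were called in this comparison.

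The effect of ketamine on the response to hypoxia was examined by comparing HK with HC. NFKBIA was lower in HK by 0.74 ± 0.33 log2 units (SE), to 0.597 of the HC level (95% confidence interval 0.366 to 0.974). It passed the unadjusted threshold in limma, as did 7.04% of tested probes, and the adjusted p was 0.698. The 2 groups overlapped, since HC5 lay below 3 of the 4 HK arrays. The exact two-sided permutation test gave p = 0.135 (0.179 adjusted over 5 comparisons, smallest possible 0.00794). Differences within slides were -0.61 on slide 1 and -0.95 on slide 2. The call did not hold when any 1 of HC1 (-0.61), HC3 (-0.72), HC4 (-0.56), HK3 (-0.51) or HK4 (-0.76) was left out, nor when only HC and HK arrays were fitted (-0.74) or when levels were scaled to ACTB (-0.69). Leaving out HC5 instead gave -1.05.

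HK remained numerically above both normoxic groups. It differed from NK by 0.54 ± 0.35 log2 units (SE; 95% confidence interval -0.20 to 1.29) and from NC by 0.62 ± 0.37 (-0.18 to 1.42). Neither passed limma's unadjusted threshold (adjusted p = 0.724 and 0.766), which 8.69% and 6.84% of probes passed in these comparisons. Against NK the difference was 0.99 on slide 1 and 0.09 on slide 2, the slide that carried HK3. Both differences passed the unadjusted threshold without HK3 (0.78 and 0.86) and also without HC5, which entered only through the shared estimate of spread. Whether ketamine acted differently on NFKBIA after hypoxia than after normoxia was tested by the interaction, the HK minus HC difference less the NK minus NC difference. It was -0.82 ± 0.50 (SE), with a 95% confidence interval of -1.89 to 0.25, and did not pass (limma, adjusted p = 0.994; 3.80% of probes were called). Without HC5 it was -1.12 and passed the unadjusted threshold.

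**Figure D2:**
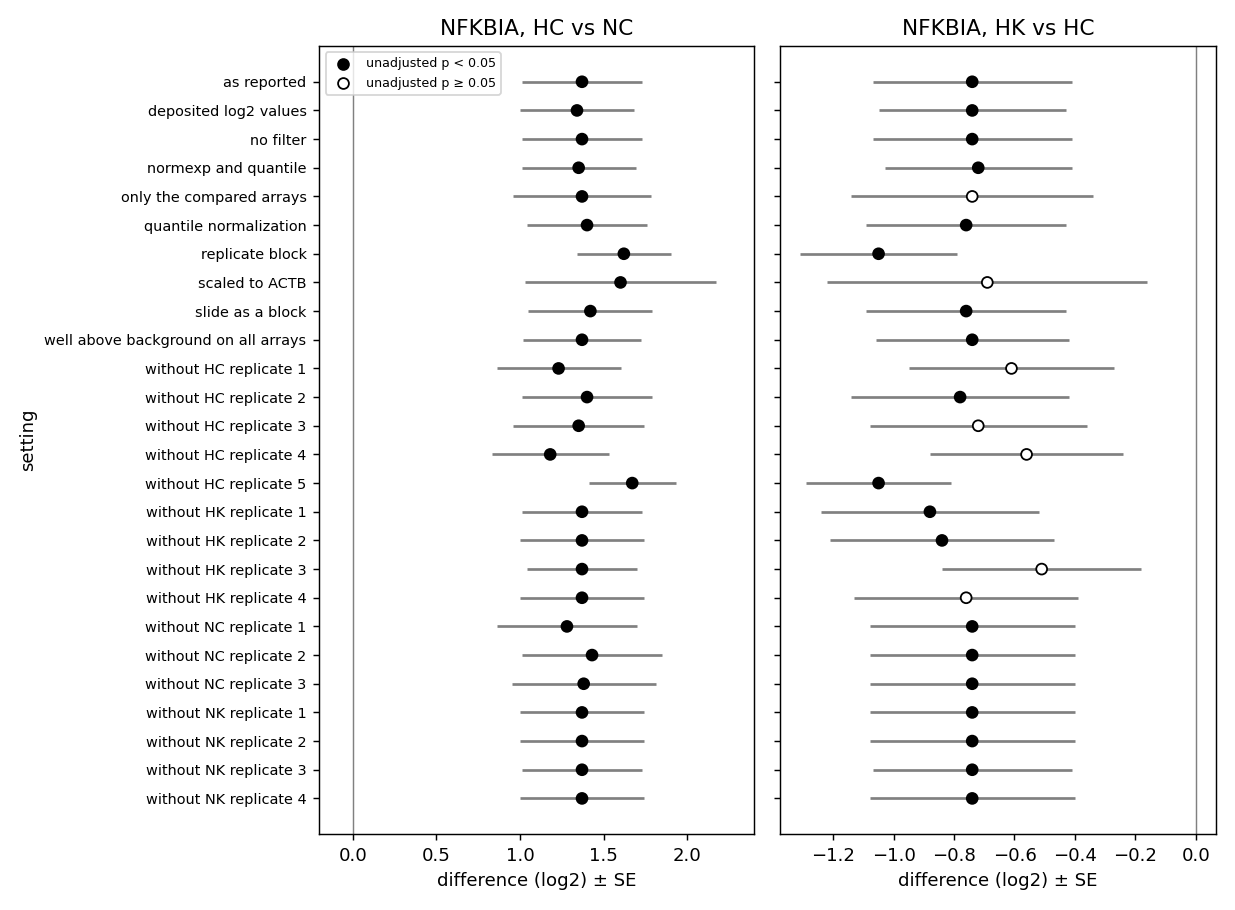
NFKBIA difference in log2 ± SE (x axes) for HC against NC (left) and HK against HC (right) under each processing setting or left-out array (y axis), with filled points where limma's unadjusted p was under 0.05. HC against NC stays between 1.18 and 1.67 and filled throughout, whereas HK against HC stays negative, from -1.05 to -0.51, and turns open under 7 settings.

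Among the named probes little of the machinery that acts directly on IκBα was found. No gene symbol could be given to 89.0% of the 15008 probes, so listed genes may lie unnamed among them. Of 27 other subunits, inhibitors and kinases of NF-κB listed, only IKBKB, the catalytic kinase IKKβ that phosphorylates IκBα, had a named, tested probe. Its level differed by 0.35 ± 0.23 log2 units (SE) between HC and NC and did not pass limma's unadjusted threshold, although a second probe differed by 0.42 and did. Over the 16 arrays IKBKB had r = 0.68 and Spearman's rho = 0.71 with NFKBIA (permutation test, adjusted p = 0.108 and 0.134), and the second probe had r = 0.82. A probe that the array calls NFKB, without saying which subunit, was well above background on 4 of 16 arrays and showed r = 0.38.

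Genes upstream of IκBα were represented by 13 of 35 listed receptors and adaptors. At the unadjusted threshold TLR2, TLR4, CD14 and TNFRSF1A rose in HC relative to NC, 4 of 13 where 4.22% of all probes rose, and 0 fell. TLR2 and TLR4 sense microbial products and products of damaged tissue, CD14 is a co-receptor that presents lipopolysaccharide to TLR4, and TNFRSF1A is a receptor for tumor necrosis factor. TLR2 rose by 1.16 ± 0.29 log2 units (SE), close in size to NFKBIA itself. The median over the 13 genes was 0.25, against -0.03 over all probes. In HK relative to HC, TLR2 (-0.82 ± 0.27, SE) and CD14 (-1.35 ± 0.55, SE) fell, 2 of 13 where 3.79% of all probes fell, and the median was -0.32, against 0.03 over all probes. The CD14 call did not hold without any 1 of HC2, HC3, HC4, HK3 or HK4, and a second CD14 probe, at -1.18, did not pass. MYD88, the adaptor used by most Toll-like receptors, differed by 0.25 ± 0.23 between HC and NC, and IRAK4 and TRAF3 by 0.32 ± 0.34 and 0.03 ± 0.17, none of which passed.

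Genes known as targets of NF-κB were the largest set available, with 26 of 53 listed genes tested in addition to NFKBIA. In HC relative to NC, 12 of 26 (TNF, IL1B, CXCL10, IL1RN, ICAM1, PTGS2, NOS2, PTX3, IRF1, BCL2, JUNB and CD86) rose at the unadjusted threshold in limma and 0 fell, where 4.22% of all probes rose and 3.93% fell. The median difference over the 26 was 0.72, against -0.03 over all probes. After adjustment over all probes 0 of the 26 passed. The count was 7 without NC2, and 9 of 16 when only probes well above background on all arrays were kept. IL1RN was well above background on 1 of 3 NC and 0 of 4 NK arrays. It was tested because of HC (4 of 5) and HK (3 of 4), where it was high, and its NC level was near background. PTGS2, the inducible cyclooxygenase of prostaglandin synthesis, rose from -2.34 ± 0.11 (SD, n = 3) to 0.61 ± 1.07 (SD, n = 5), or 7.73-fold. A second, dimmer PTGS2 probe differed by 0.92 and did not pass. Neither did the second probes of JUNB, at 0.91 against 1.07 for the first, and of NOS2, at 0.14 against 0.68. Those of PTX3, BCL2 and CD86 did pass. ICAM1, an adhesion molecule for leukocytes, was well above background on 2 of 3 NC arrays and 5 of 5 HC arrays and rose by 2.42 ± 0.80 log2 units (SE). CXCL10, a chemokine for lymphocytes, rose by 4.42 ± 1.74 (SE), although its probe was saturated on HC4. Targets that did not pass included CXCL8, at 3.24 ± 1.68 (SE), whose second probe gave 4.63 and did pass, and SOD2, at 0.30 ± 0.27. CXCL1 was saturated on 16 of 16 arrays, so no change in it could be seen. Like NFKBIA, TLR2, ICAM1, PTGS2, PTX3 and IRF1 passed with each array in turn left out, 5 of the 16 targets and upstream genes called. The others did not pass without at least 1 array, among them CXCL10 without HC2, HC4 or NC3, and TLR4 and TNF without NC3. The least steady were IL1RN, lost without any 1 of 10 arrays, TNFRSF1A of 8, CD14 of 7, CD86 of 6 and JUNB of 5.

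In HK relative to HC, which shares the HC arrays with the previous comparison, 7 of 26 targets fell and 0 rose, where 3.79% of all probes fell and 3.25% rose. They were TNF, IL6, PTGS2, NOS2, BCL2, FAS and C3. Second probes of NOS2 (-0.28), FAS (-0.71) and PTGS2 (-1.38) did not pass, whereas those of BCL2 (-0.49) and C3 (-0.54) did. The median difference was -0.61, against 0.03 over all probes, and 0 of 26 passed after adjustment in limma. The count depended on single arrays. It was 15 without HC5, 12 without HC3, 4 without HC2 or HC4 and 3 without HK1. With each array in turn left out, TLR2, TNF and BCL2 still passed, 3 of the 9 targets and upstream genes called, whereas PTGS2, like NFKBIA, did not pass without HC1, HC4, HK3 or HK4, nor without HC2 or HK1. Beside the fall of 0.74 in NFKBIA, PTGS2 fell by 1.14 ± 0.50 and TNF by 1.62 ± 0.57 (SE). In NK relative to NC, 0 of 26 targets were called in limma and the median was 0.01. In HK relative to NK 2 rose and 1 fell, where 2.38% of all probes rose and 6.31% fell, and in HK relative to NC 1 rose, where 2.67% did. The interaction was called for 3 of 26, all with the ketamine difference lower after hypoxia, as for 2.49% of all probes.

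**Figure D3:**
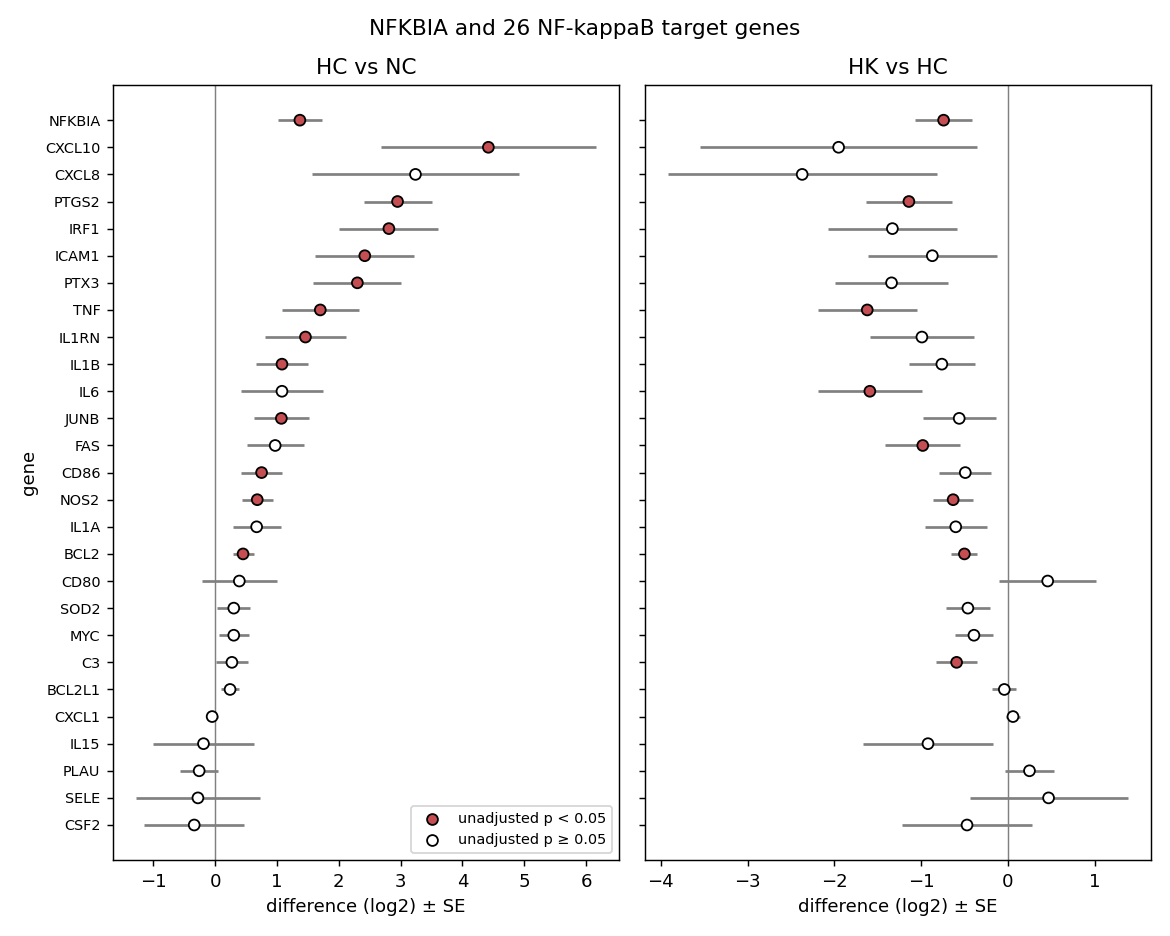
Difference in log2 ± SE (x axes) of NFKBIA and 26 NF-κB target genes (y axis, ordered by the left panel) for HC against NC (left) and HK against HC (right), with filled points where limma's unadjusted p was under 0.05. In HC 12 targets are filled, all to the right of 0, and in HK 7 are filled, all to the left, in the same directions as NFKBIA at 1.37 and -0.74.

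NFKBIA was also among the genes of the Toll-like receptor and apoptosis pathways that had been picked for PCR in these fetuses. Of the other 13 genes of that set, 9 had tested probes. At the unadjusted threshold 8 of 9 rose in HC relative to NC, where 4.22% of all probes did, and 4 of 9 fell in HK relative to HC, where 3.79% did. The set was chosen on these samples, so its counts are not independent evidence of a direction.

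Each array was then used to ask which genes varied with NFKBIA. The level of 12175 probes was correlated with that of NFKBIA over 16 arrays, with p-values from 100000 permutations of the arrays adjusted over all of these relations. The permutations moved arrays across groups, so a probe that differs between groups as NFKBIA does can pass for that reason. A positive correlation passed for 116 probes, or 0.953%, and a negative one for 79, or 0.649%. With Spearman's rho the counts were 47 and 16. Without HC4, the array highest in NFKBIA, 79 and 34 passed. Across slides, with slide means removed, the counts were 174 and 156, and within slide 1 and slide 2, of 8 arrays each, 0 passed after adjustment (exact permutation test, smallest adjusted p = 0.144 and 0.145; 1064 and 1289 at an unadjusted 0.05).

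Among the 26 targets, 22 had a positive r with NFKBIA and the median was 0.58, against -0.09 over all 12175 probes. In the permutation test over all probes, 5 targets passed. This is not independent of the group differences given above, and with the groups in the model, as described below, 0 targets passed. PTGS2 showed r = 0.90 and rho = 0.80 (adjusted p = 0.00761 and 0.0533). JUNB, part of the AP-1 transcription factor, showed r = 0.87 and rho = 0.64 (adjusted p = 0.0155 and 0.219). PTX3, a secreted pattern-recognition protein, showed r = 0.83 and rho = 0.74 (adjusted p = 0.03 and 0.0992). ICAM1 showed r = 0.80 and rho = 0.66 (adjusted p = 0.0256 and 0.19), and IRF1, a transcription factor of the interferon response, r = 0.77 and rho = 0.61 (adjusted p = 0.0493 and 0.253). None of the 5 passed by rho, which sets aside the height of HC1 and HC4. Without these arrays, the 2 farthest from the median of NFKBIA, r was 0.83 for PTGS2, 0.72 for JUNB, 0.65 for PTX3, 0.67 for ICAM1 and 0.68 for IRF1. For IL6, by contrast, r went from 0.65 to -0.28 on leaving out HC1 and HC4, so that its relation rested on those arrays. For IL1B r went from 0.76 to 0.33.

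Within slides the 5 relations kept their sign. They had been picked for a high r over these same arrays, so this is no separate check. For PTGS2 r was 0.90 on slide 1 and 0.90 on slide 2, for JUNB 0.95 and 0.95, for PTX3 0.90 and 0.76, for ICAM1 0.82 and 0.79, and for IRF1 0.70 and 0.85. Among the targets whose correlation did not pass, CXCL10 had r = 0.57 (permutation test, adjusted p = 0.251), close to the median of the 26 targets (0.58). CXCL10 was high in HC5 (1.99), where NFKBIA was at its normoxic level, and low in HC3 (-1.49) and HK1 (-3.97), where NFKBIA was raised. NOS2, C3 and SOD2 showed r of 0.31, -0.06 and 0.11. PLAU, the urokinase-type plasminogen activator, ran opposite to NFKBIA at r = -0.66 (rho = -0.69, permutation test, adjusted p = 0.121 and 0.157).

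**Figure D4:**
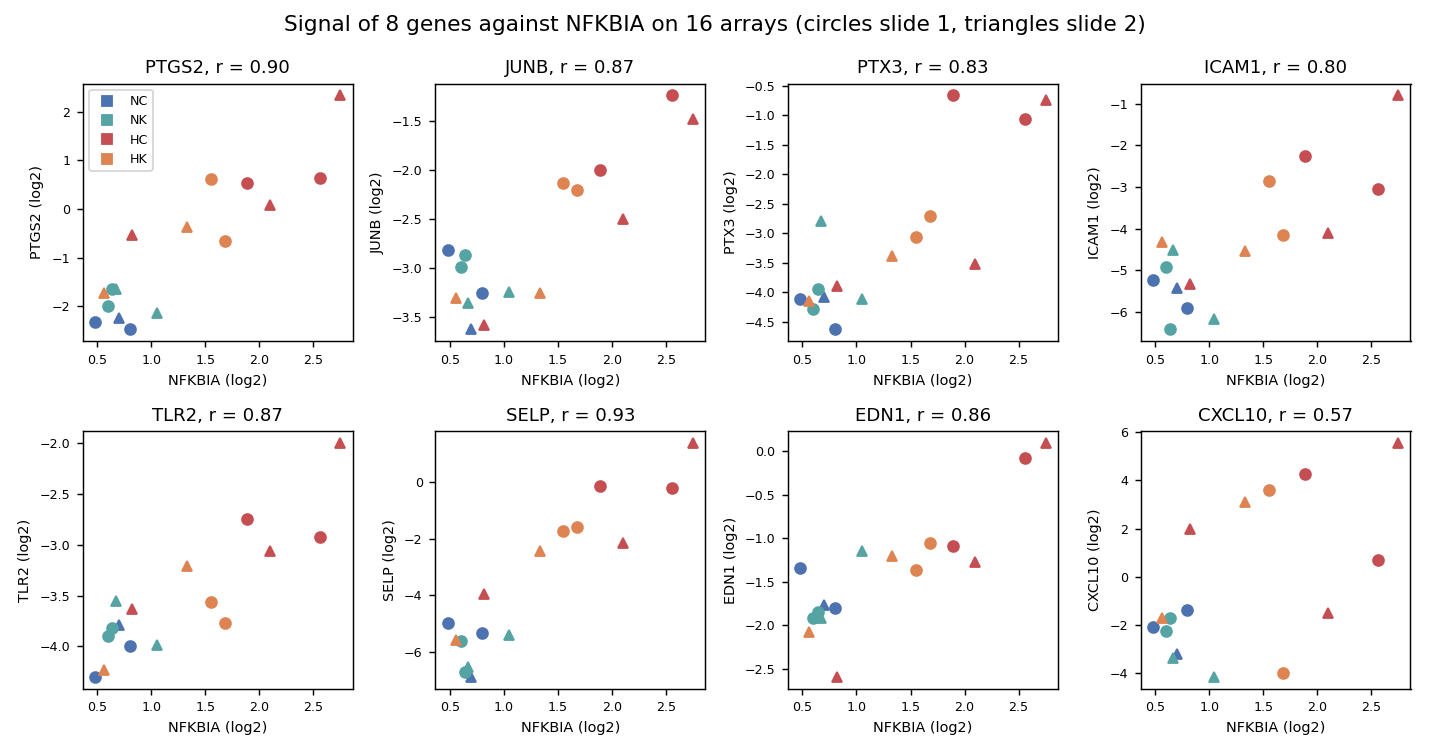
Signal of 8 genes (y axes) against NFKBIA (x axes), both in log2 units from the 75th percentile of each array, on 16 arrays colored by group, with circles for slide 1 and triangles for slide 2. PTGS2, TLR2 and SELP climb with NFKBIA among the hypoxic arrays. CXCL10 (r = 0.57) is high on HC5, where NFKBIA is low, and low on HC3 and HK1, where NFKBIA is raised.

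The 13 upstream genes had a median r of 0.27 with NFKBIA, against -0.09 over all probes. TLR2 passed, at r = 0.87 and rho = 0.83 (permutation test, adjusted p = 0.0084 and 0.0379), with r = 0.86 on slide 1, 0.91 on slide 2 and 0.78 without HC1 and HC4. CD14 showed r = 0.74 and rho = 0.64 (adjusted p = 0.0562 and 0.229), and TLR4 r = 0.60 and rho = 0.68 (adjusted p = 0.217 and 0.162). MYD88 showed r = 0.21.

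NFKBIA also responds to glucocorticoids, and 2 of 14 listed glucocorticoid-responsive genes were tested. NR3C1, the glucocorticoid receptor, showed r = -0.57 and rho = -0.74 with NFKBIA (permutation test, adjusted p = 0.242 and 0.0999), and HSD11B1, which regenerates active glucocorticoid, r = -0.26. Neither was called in HC against NC. The usual glucocorticoid-induced reporters such as FKBP5 and TSC22D3 are not analysed here.

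The named genes most like NFKBIA over the 16 arrays were taken from 860 with a tested probe, 1 probe a gene, and are given as a description. In order of r they were SELP (0.93), MTHFD2 (0.92), PDXK (0.91), PTGS2 (0.90), SLC2A3 (0.87), TLR2 (0.87), JUNB (0.87), EDN1 (0.86), LOC100037678 (0.83) and FGF2 (0.83). Only PTGS2, TLR2 and JUNB of these were on the lists of pathway genes. SELP encodes P-selectin, which captures leukocytes on activated endothelium and platelets. EDN1 encodes the vasoconstrictor endothelin-1. SLC2A3 is the neuronal glucose transporter, MTHFD2 a mitochondrial folate enzyme, PDXK the kinase that activates vitamin B6, and FGF2 a growth factor. Among the genes most opposed were FZD2 (-0.85), a Wnt receptor, LOC100125624 (-0.78), CXCR4 (-0.77), a chemokine receptor, and ME1 (-0.77), the cytosolic malic enzyme. Second probes gave similar values for SELP (0.92), MTHFD2 (0.90), SLC2A3 (0.85), TLR2 (0.85), LOC100037678 (0.84), FGF2 (0.83), FZD2 (-0.87) and CXCR4 (-0.78). They gave lower values for JUNB (0.78) and for PTGS2 (0.67), whose second probe was well above background on 6 of 16 arrays.

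The closest of these genes, SELP, measured -0.23, -0.16, -2.16, 1.37 and -3.97 in HC1 to HC5, and -1.58, -1.74, -5.56 and -2.43 in HK1 to HK4. On normoxic arrays it lay between -6.88 and -4.98 and was well above background on 2 of 3 NC and 1 of 4 NK arrays. HC5 and HK3, the hypoxic arrays with the least NFKBIA, were also those with the least SELP, as the choice of SELP by its correlation favors. The order was not the same throughout, since HC3 had more NFKBIA than HC2 but less SELP. Of the 26 targets, which were not chosen by correlation, HC5 was the lowest HC array for 11, as for 15.9% of all tested probes, and HK3 the lowest HK array for 11, as for 21.6%. HC5 lay at or below the highest normoxic array for 17 of 26 targets (85.1% of all tested probes) and HK3 for 23 of 26 (81.3%).

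The relation was then described within the hypoxic and the normoxic arrays. Over the 26 targets the median r was 0.61 within the 9 hypoxic arrays (24 genes) and -0.31 within the 7 normoxic arrays (23 genes). Over all probes the medians were -0.10 and -0.06. On the normoxic arrays NFKBIA itself ranged only from 0.48 to 1.05, and all but NK3 lay at 0.80 or below. The normoxic r values thus lean heavily on NK3. PTGS2 went from 0.85 in the hypoxic to -0.16 in the normoxic arrays, JUNB from 0.90 to -0.44, and TLR2 from 0.85 to 0.11. SELP went from 0.93 to 0.09 and EDN1 from 0.92 to 0.44. PDXK, chosen for its high r over all arrays, showed 0.83 and 0.88, and NOS2 0.11 and 0.89. Among the normoxic arrays PDXK was highest on NK3 (0.36), as was NFKBIA. Of 36 target and upstream genes with a value in both sets, r was higher in the hypoxic arrays for 30, as for 47.6% of all probes, and the differences between the sets were not tested. Within the normoxic arrays 0 of 11517 probes passed after adjustment (exact permutation test, smallest adjusted p = 0.762; 589 at an unadjusted 0.05). Within the hypoxic arrays 2 passed, both without a gene name and with r near 0 over all 16 arrays (0.02 and 0.19).

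**Figure D5:**
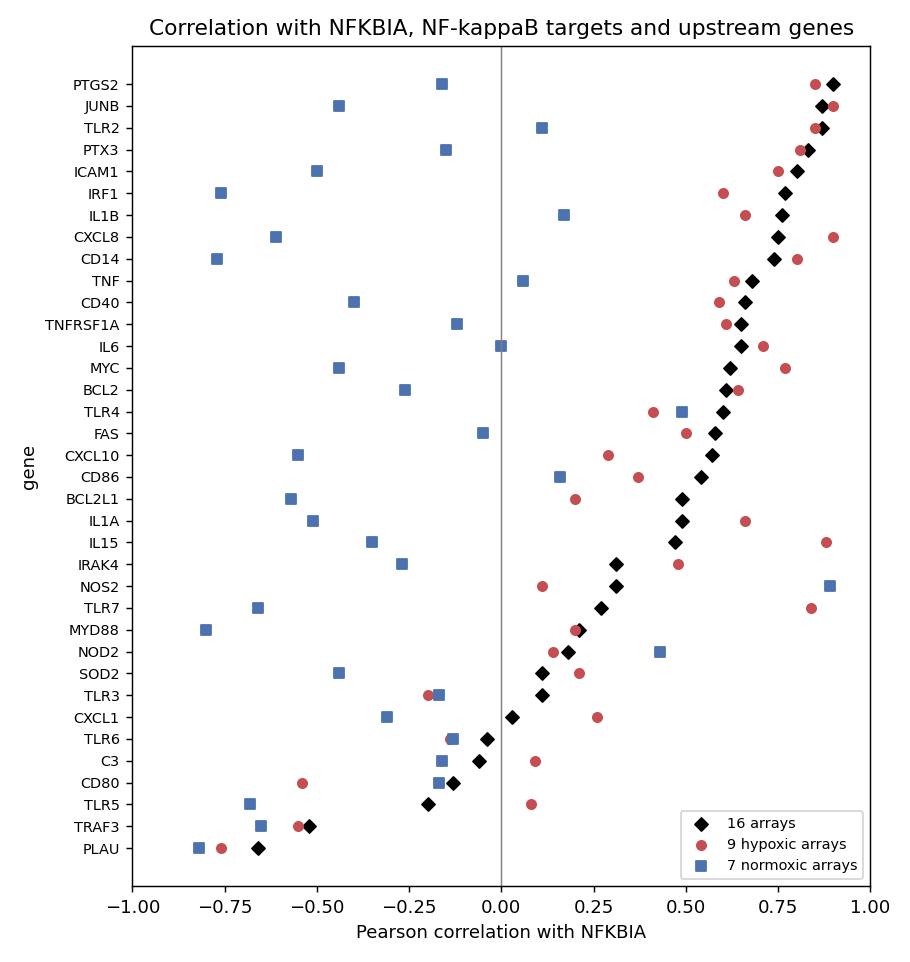
Pearson correlation with NFKBIA (x axis) of 36 NF-κB target and upstream genes (y axis, ordered by r over 16 arrays) over all arrays (diamonds), the 9 hypoxic arrays (circles) and the 7 normoxic arrays (squares). Hypoxic values track the overall ones, from PTGS2 at 0.90 overall down to PLAU at -0.66, while most normoxic values lie to the left of 0.

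Since the groups differed in NFKBIA, the relation was also examined within groups. In a limma fit with the 4 groups and NFKBIA as a covariate, 3 of 12249 probes passed after adjustment, all positive (0.0245%), and 1130 passed an unadjusted 0.05. They were EDN1, which moved by 1.24 ± 0.15 log2 units (SE) for each log2 unit of NFKBIA (adjusted p = 0.0262), and probes of 2 transcripts without a gene name. Of these 3 EDN1 was singled out after its value was seen. It did not pass limma's unadjusted threshold between HC and NC (0.65 ± 0.48) but had r = 0.92 with NFKBIA in deviations from the group means. It measured -0.08 and 0.09 in HC1 and HC4 and -2.59 in HC5. The count was not steady, at 0 with slide or replicate number as a block, 51 without NK3, and 0 without any 1 of HC1, HC4, HC5, HK3, NC3, NK1, NK2 or NK4. Among the 26 targets, r within groups had a median of 0.36 and 0 passed after adjustment in that fit. JUNB (0.80), PTGS2 (0.74) and PTX3 (0.64) were among the higher, CXCL10 (0.10) and CD86 (0.17) were near 0, and PLAU (-0.78), C3 (-0.33) and NOS2 (-0.22) were negative.

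Markers of cell types were set beside NFKBIA. In bulk tissue, fewer cells of a type and less RNA per cell cannot be told apart. Of 14 listed genes of microglia and macrophages, CD14 and ITGAM were tested and both rose at the unadjusted threshold in HC relative to NC, where 4.22% of all probes did. A second ITGAM probe differed by 0.26 and did not pass. Their summed signal, in multiples of the array's 75th percentile, ranged from 0.158 to 0.184 in NC, 0.110 to 0.220 in NK, 0.155 to 0.965 in HC and 0.118 to 0.378 in HK, and its log2 had r = 0.76 with NFKBIA. The sum was mostly CD14, the brighter of the 2 (mean -1.49 in HC, against -4.32 for ITGAM), which alone had r = 0.74. The 2 markers parted from each other, since ITGAM alone had r = 0.36 with NFKBIA. Of the endothelial list 5 of 9 were tested. SELP followed NFKBIA, but PECAM1, KDR, TIE1 and SELE showed r of 0.19, -0.24, -0.12 and -0.10 and were not called. A second KDR probe was lower in HC than in NC by 0.67 at the unadjusted threshold, with r = -0.52. The blood marker HBB had r = -0.11. The astrocyte genes went both ways, with SLC1A3 at r = -0.58 (rho = -0.63, permutation test, adjusted p = 0.239 and 0.231), GFAP at 0.46, SLC1A2 at 0.12 and AQP4, which was saturated on 14 of 16 arrays, at -0.17. The 8 hypothalamic peptide genes had a median r of 0.05. Of the anterior pituitary genes 4 of 8 were tested, with r from 0.12 to 0.41, and LHB was higher in HK than in HC by 0.19 ± 0.08 (SE). No tested probe carried the name of a listed neutrophil or neuron gene. The part of changes in cell number in the NFKBIA differences was not tested.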

How the data were processed

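Cyanine 3-labelled RNA of 16 fetuses was hybridized to 1-color Agilent sheep arrays. The deposited scanner files, written by Feature Extraction 10.1.1.1 per the file headers, hold intensity values that the authors had background-corrected but not normalized between arrays. A further deposited table holds log2 values, rebuilt here to within 5e-09 by normexp correction and quantile normalization, and served as an alternative. Control and outlier spots were left out. The log2 processed signal minus each array's 75th percentile was analysed for probes well above background on at least 3 arrays (12250). Genes were named from the array annotation, and 726 of 750 RefSeq accessions matched a sheep RefSeq table. Each gene was represented by its brightest tested probe. A 4-group model was fitted in limma 3.58.1 (R 4.3.3) with empirical Bayes moderation, 13.7 total degrees of freedom and two-sided tests. Permutation tests were run in Python with numpy and scipy, and the procedures were tested on simulated data. Genes named are NFKBIA, listed pathway genes past an unadjusted 0.05 in HC against NC or HK against HC, the PCR set, and the 10 highest and 5 lowest correlations with NFKBIA, of which 1 is not reported here. Other genes were named because a list result turned on them, after their values were seen. NFKBIA and the gene lists were chosen with earlier results of these data known. Alternatives were other normalizations, filters, blocks and leaving out each array. The number of arrays limits the precision. All deposited value columns used belonged to these samples.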

Additional observations from a re-analysis of the deposited data

Results flagged for a closer look

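NFKBIA was itself set apart on 1 array. In NK, NK3 measured 1.05 and lay farther from the other 3 arrays than Dixon's critical value for 4 samples allows. EDN1 was highest on the same array of NK (-1.15) and met the same criterion. Other single arrays set apart were HK2 for TLR4 (-4.62), HK2 for TNF (-3.17), NK4 for TNF (-5.65) and NK4 for FZD2 (1.0). These 6 came from 99 gene and group combinations examined, and chance alone gives about 1 in 20.

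The interaction, in which the ketamine difference after hypoxia is set against that after normoxia, passed limma's unadjusted threshold of 0.05 for 6 of 33 genes examined, NFKBIA included, where 3.8% of all probes passed, and none passed after adjustment over all probes. Many of the 33 were named for comparisons that share the HC arrays with the interaction, so this count is not independent of those. It was -1.03 for TLR2, -0.94 for NOS2, -0.61 for BCL2, -0.84 for C3 and -0.93 for FGF2, on the log2 scale, and 0.38 for ME1. NFKBIA, at -0.82, did not pass, with a wider error of 0.50. For NOS2, a second probe differed by only 0.14 between HC and NC and by -0.28 between HK and HC.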

How the results depend on the processing

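The difference in NFKBIA between HC and NC passed the unadjusted threshold under all 9 alternatives, from 1.34 to 1.62, and with each array left out, from 1.18 to 1.67. HK against HC lost its call when only HC and HK arrays were fitted (-0.74) or levels were scaled to ACTB (-0.69), and ranged from -1.05 to -0.51 over left-out arrays. Scaled to ACTB, NK against NC was 0.67, HK against NK 0.25, HK against NC 0.92 and the interaction -1.36, none of which passed. Over left-out arrays the others ranged from 0.41 to 0.78 for HK against NK, 0.49 to 0.86 for HK against NC, -1.12 to -0.58 for the interaction and -0.02 to 0.15 for NK against NC, which turned sign without NC1 (-0.01) or NK3 (-0.02). The cause was not tested. Over left-out arrays, targets called ranged from 7 to 15 in HC against NC, 3 to 15 in HK against HC, 1 to 5 in HK against NK, 1 to 3 in HK against NC, 2 to 6 for the interaction and stayed at 0 in NK against NC (limma; 1 when only NC and NK arrays were fitted). When only the compared arrays were fitted, 3 targets were called in HK against HC and 3 in HK against NC. With probes well above background on all arrays, 4 of 16 were called in HK against HC. With slide as a block, 5 were called for the interaction.

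Replicate numbers were shared between groups, but deviations of same-numbered arrays correlated from -0.06 to 0.35 (median 0.22). Differently numbered arrays of the same slide gave -0.02 to 0.45 (median 0.21), so the numbers were not taken as pairs. Arrays of different slides gave -0.40 to 0.15 (median -0.18), so deviations were more alike within a slide. The main fit held no slide term. With slide as a block, NFKBIA differed by 1.42 in HC against NC and by -0.76 in HK against HC. With a replicate block the interaction for NFKBIA was -1.08 and passed the unadjusted threshold. Targets called numbered 18 in HK against HC, 6 in HK against NK, 2 in HK against NC and 7 for the interaction. Replicate number 5 was held by HC5 alone, so the block fits HC5 exactly and in effect leaves it out. It is therefore not separate from leaving out HC5, which gave an interaction of -1.12 and 15 targets called in HK against HC. The replicate block changed no other NFKBIA call.

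Probes that followed NFKBIA numbered 195, and from 113 to 203 with 1 array left out. They numbered 330 with slide as a block, 63 by Spearman, 2 within the hypoxic arrays, 0 within the normoxic arrays and 0 and 0 within slides 1 and 2, where fewer arrays leave less power. Within groups, the count of 3 became 11 with the deposited values, 11 with normexp, 1 without a filter, 0 with slide as a block, 0 with a replicate block, and from 0 to 51 with 1 array left out. A second NFKBIA probe could not be tried, since the array names 1.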

Other observations

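CXCL8, a chemokine for neutrophils, depended on the probe. The brighter had r = 0.75 with NFKBIA, and the second, well above background on 6 of 16 arrays, r = 0.93. Within the hypoxic arrays the brighter probe showed r = 0.90 and measured 0.82 and 1.48 in HC1 and HC4, the arrays with the most NFKBIA.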
